A study of Homo sapiens
Mus musculus with 2 samples.

Results

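Proteins that leave a cell are threaded into the endoplasmic reticulum (ER), trimmed, and carried onward in coated vesicles. The genes described here encode that machinery in mouse: the signal recognition particle (SRP) and its receptor, the Sec61-Sec62-Sec63 translocon, the translocon-associated protein complex, the signal peptidase, the vesicle coats COPII and COPI, the Sec22 membrane-fusion proteins and the p24 cargo receptors. They were picked by a rule on the gene symbol (Sec11, Sec13, Sec16, Sec22 to Sec24, Sec31 and Sec61 to Sec63 genes, coatomer genes beginning with Copa, Copb, Cope, Copg or Copz, Tmed genes, Ssr1 to Ssr4, Spcs1 to Spcs3 and Srp genes). The rule was set with earlier results of these data known. It gave 57 of the 25504 genes in the tables. By complex there were 8 genes of the SRP and its receptor, 6 of the translocon, 4 of the translocon-associated protein complex, 5 of the signal peptidase, 12 of COPII, 3 Sec22 genes, 8 of COPI and 11 p24 genes. Arcn1, the delta subunit of COPI, has a symbol outside this rule and is given only beside it.

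The SRP binds the signal sequence of a nascent protein and docks the ribosome on the ER through its receptor, and the Sec61 channel takes the chain across or into the membrane. Signal peptidase then removes the signal sequence, COPII vesicles carry cargo from the ER towards the Golgi, and COPI vesicles return escaped residents and receptors. In the colon, goblet cells release the mucin-rich mucus that covers the surface, and Reg4-expressing deep crypt secretory cells sit at the crypt base beside the stem cells, so both use this route.

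The cells came from the colonic epithelium of 1 wild-type (WT) C57Bl6 mouse that received no treatment, taken apart with EDTA, collagenase and DNase, enriched for viable cells and mixed with cells of the human leukaemia line K562. They were encapsulated with inDrop, a droplet method that tags the RNA of each cell with a barcode and each captured molecule with a unique molecular identifier (UMI), and amplified by CEL-Seq. The 2 libraries hold different cells of that animal from 1 sequencing run and form 1 group, so classes of cells were compared, not conditions. Every p-value covers the spread of class differences between 2 libraries of 1 mouse, which may be technical.

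Library 1 held 1738 barcodes with a median of 4615.5 UMIs and library 2 held 664 with a median of 4756.5. Of the barcodes' count profiles over all genes, 0 occurred in both libraries. After 120 likely doublets had been left out, clustering on 12685 other genes gave 11 clusters. The classes were named from marker genes, and their names are rebuilt here, not the authors'. Goblet-like cells numbered 266 and 67 in libraries 1 and 2, deep crypt secretory-like cells 265 and 78, cycling secretory-like cells 53 and 24, cycling non-secretory cells 214 and 78 and colonocyte-like cells 538 and 155. The last 2 classes are the non-secretory epithelium against which the secretory classes were set. The 7 goblet markers (Muc2, Zg16, Clca1 and others) summed to 183815 and 155944 counts per 1000000 UMIs (CPM) in goblet-like cells but also to 2882 and 2107 CPM in colonocyte-like cells, and the 7 deep crypt secretory markers (Reg4, Nov and others) to 16430 and 15352 CPM in their class and 348 and 305 CPM in colonocyte-like cells. The part of free RNA in the differences below was not tested. Cells in the 3 unnamed clusters (249 and 219) and the immune-like (57 and 8) and tuft-like cells (9 and 2) entered no test.

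The 57 genes together took a larger share of the UMIs in each of the 3 secretory classes than in either non-secretory class, in both libraries. The share was 1.48% and 1.23% in deep crypt secretory-like cells of libraries 1 and 2, 1.34% and 1.14% in cycling secretory-like cells and 1.05% and 0.947% in goblet-like cells. It was 0.943% and 0.741% in cycling non-secretory cells and 0.559% and 0.480% in colonocyte-like cells. Within a library, the share in deep crypt secretory-like cells was 2.65 and 2.57 times that in colonocyte-like cells, and the share in goblet-like cells 1.89 and 1.97 times. Against cycling non-secretory cells the goblet-like share was 1.12 and 1.28 times as high. Library 1 lay above library 2 in all 5 classes. The 7 goblet markers alone took 183815 and 155944 CPM of the goblet-like sums, which leaves less for all other genes on this scale. The fitted fold changes below use TMM scaling, which sets such dominant genes aside, so they can differ from ratios of CPM. A TMM factor below 1 raises the scaled levels of a class and a factor above 1 lowers them. The factors were 0.785 and 0.919 in goblet-like and 0.768 and 0.894 in colonocyte-like cells of libraries 1 and 2. They were 1.02 and 1.11 in deep crypt secretory-like, 1.14 and 1.22 in cycling secretory-like and 1.11 and 1.16 in cycling non-secretory cells.

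**Figure D1:**
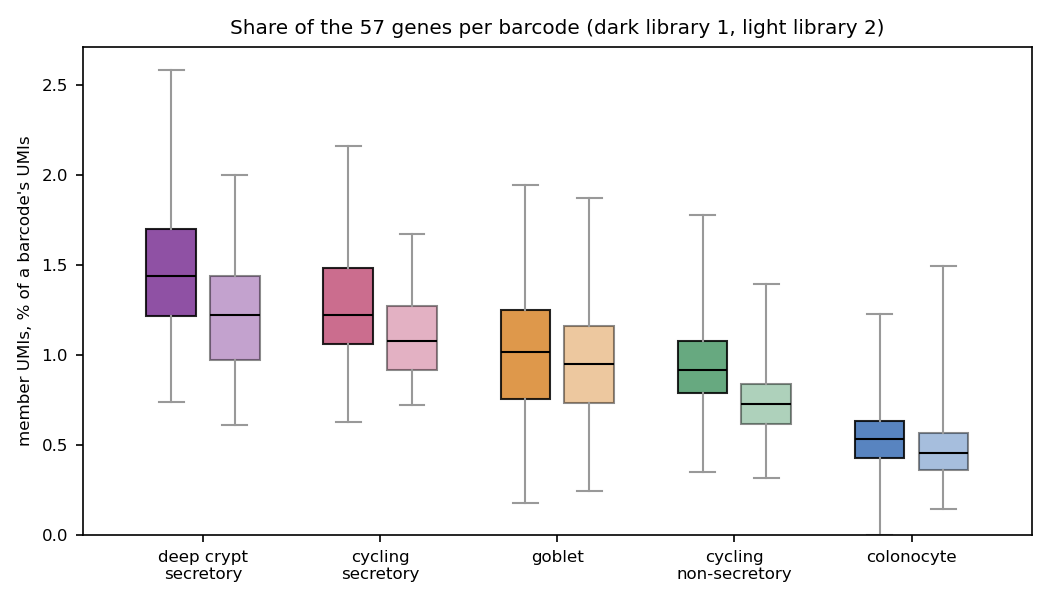
Share of a barcode's UMIs (%) that came from the 57 genes, by class and library. Boxes span the quartiles with the median as a line and whiskers reach the lowest and highest barcode; the median was 1.44% and 1.22% in deep crypt secretory-like cells and 0.534% and 0.458% in colonocyte-like cells.

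Single barcodes followed the order of the sums. The median barcode gave 1.44% and 1.22% of its UMIs to these genes in deep crypt secretory-like cells, 1.22% and 1.08% in cycling secretory-like cells, 1.02% and 0.952% in goblet-like cells, 0.915% and 0.731% in cycling non-secretory cells and 0.534% and 0.458% in colonocyte-like cells. The lower quartile of deep crypt secretory-like barcodes (1.21% and 0.970%) lay above the upper quartile of colonocyte-like barcodes (0.634% and 0.564%). The full ranges of all 5 classes overlapped. Goblet-like barcodes ran from 0.179% to 1.95%, deep crypt secretory-like from 0.613% to 2.58% and colonocyte-like from 0% to 1.49% (both libraries together). Mitochondrial transcripts moved the other way: their median was 3.65% to 4.05% of UMIs in the 3 secretory classes, 6.65% in cycling non-secretory cells and 7.19% in colonocyte-like cells (both libraries together). Their part in the result was not tested.

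Every complex was lowest in colonocyte-like cells, and the steps above that level differed between complexes. The translocon-associated protein complex summed to 1507 and 1352 CPM in deep crypt secretory-like cells and 429 and 389.7 CPM in colonocyte-like cells, 3.52 and 3.47 times as much. The signal peptidase stood at 1959.6 and 1689 CPM in cycling secretory-like, 1871 and 1547 CPM in deep crypt secretory-like and 1451 and 1030.4 CPM in cycling non-secretory cells, against 1179 and 1127 CPM in goblet-like and 535 and 482 CPM in colonocyte-like cells. For this complex alone, goblet-like cells did not stand above cycling non-secretory cells in both libraries in CPM. The translocon reached 3.1 and 3.04 times the colonocyte-like level in deep crypt secretory-like cells. The coats differed less, with COPI at 2.2 and 2.03 times and COPII at 2.07 and 2.1 times the colonocyte-like level, and the SRP with its receptor (2.39 and 2.32 times) and the p24 receptors (2.27 and 2.24 times) lay between.

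**Figure D2:**
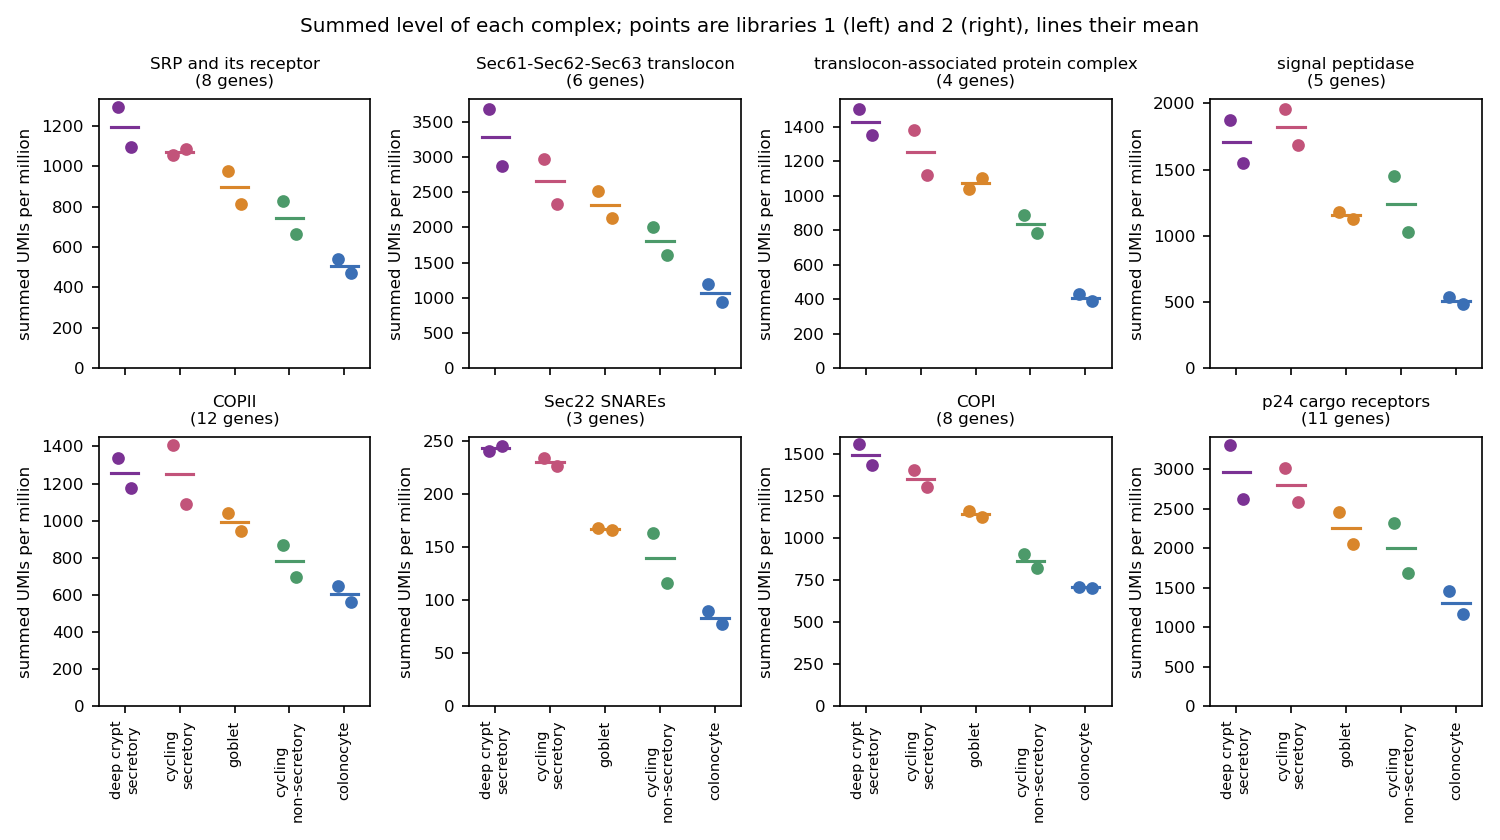
Summed level of each complex in CPM by class; points are libraries 1 (left) and 2 (right) and lines their mean, on axes that start at 0. The colonocyte-like level is the lowest in all 8 panels, and the signal peptidase panel shows cycling non-secretory cells level with goblet-like cells.

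For the tests, UMIs were summed per library and class and compared with edgeR's quasi-likelihood test, each secretory class against the mean of both non-secretory classes. Of the 57 genes, 55 had the 20 UMIs over all sums that the test required; Tmed6 and Tmed11, with 15 and 24 UMIs over all barcodes, did not. In deep crypt secretory-like cells 40 of the 55 were higher and 1 lower at an adjusted p under 0.05, where 14.5% of all 8060 genes tested were higher and 11.2% lower. The median log2 fold change was 0.89 over the 55 and 0.05 over all genes. In goblet-like cells 34 were higher and 1 lower, beside 10.8% and 8.1% of all genes, with a median of 0.80 against -0.03. In cycling secretory-like cells 26 were higher and 1 lower, beside 10.6% and 9.32% of all genes, with a median of 0.58 against -0.03. Changes of at least 2-fold upward numbered 21, 13 and 6 (9.19%, 7.49% and 7.64% of all genes). These comparisons share the non-secretory cells, so they are not independent of each other. The median doublet score was 0.60 in cycling secretory-like cells and 0.38 to 0.46 in the other 4 classes. Without the library as a block, 12 genes were higher in cycling secretory-like cells, where 603 of all 8060 genes were.

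**Figure D3:**
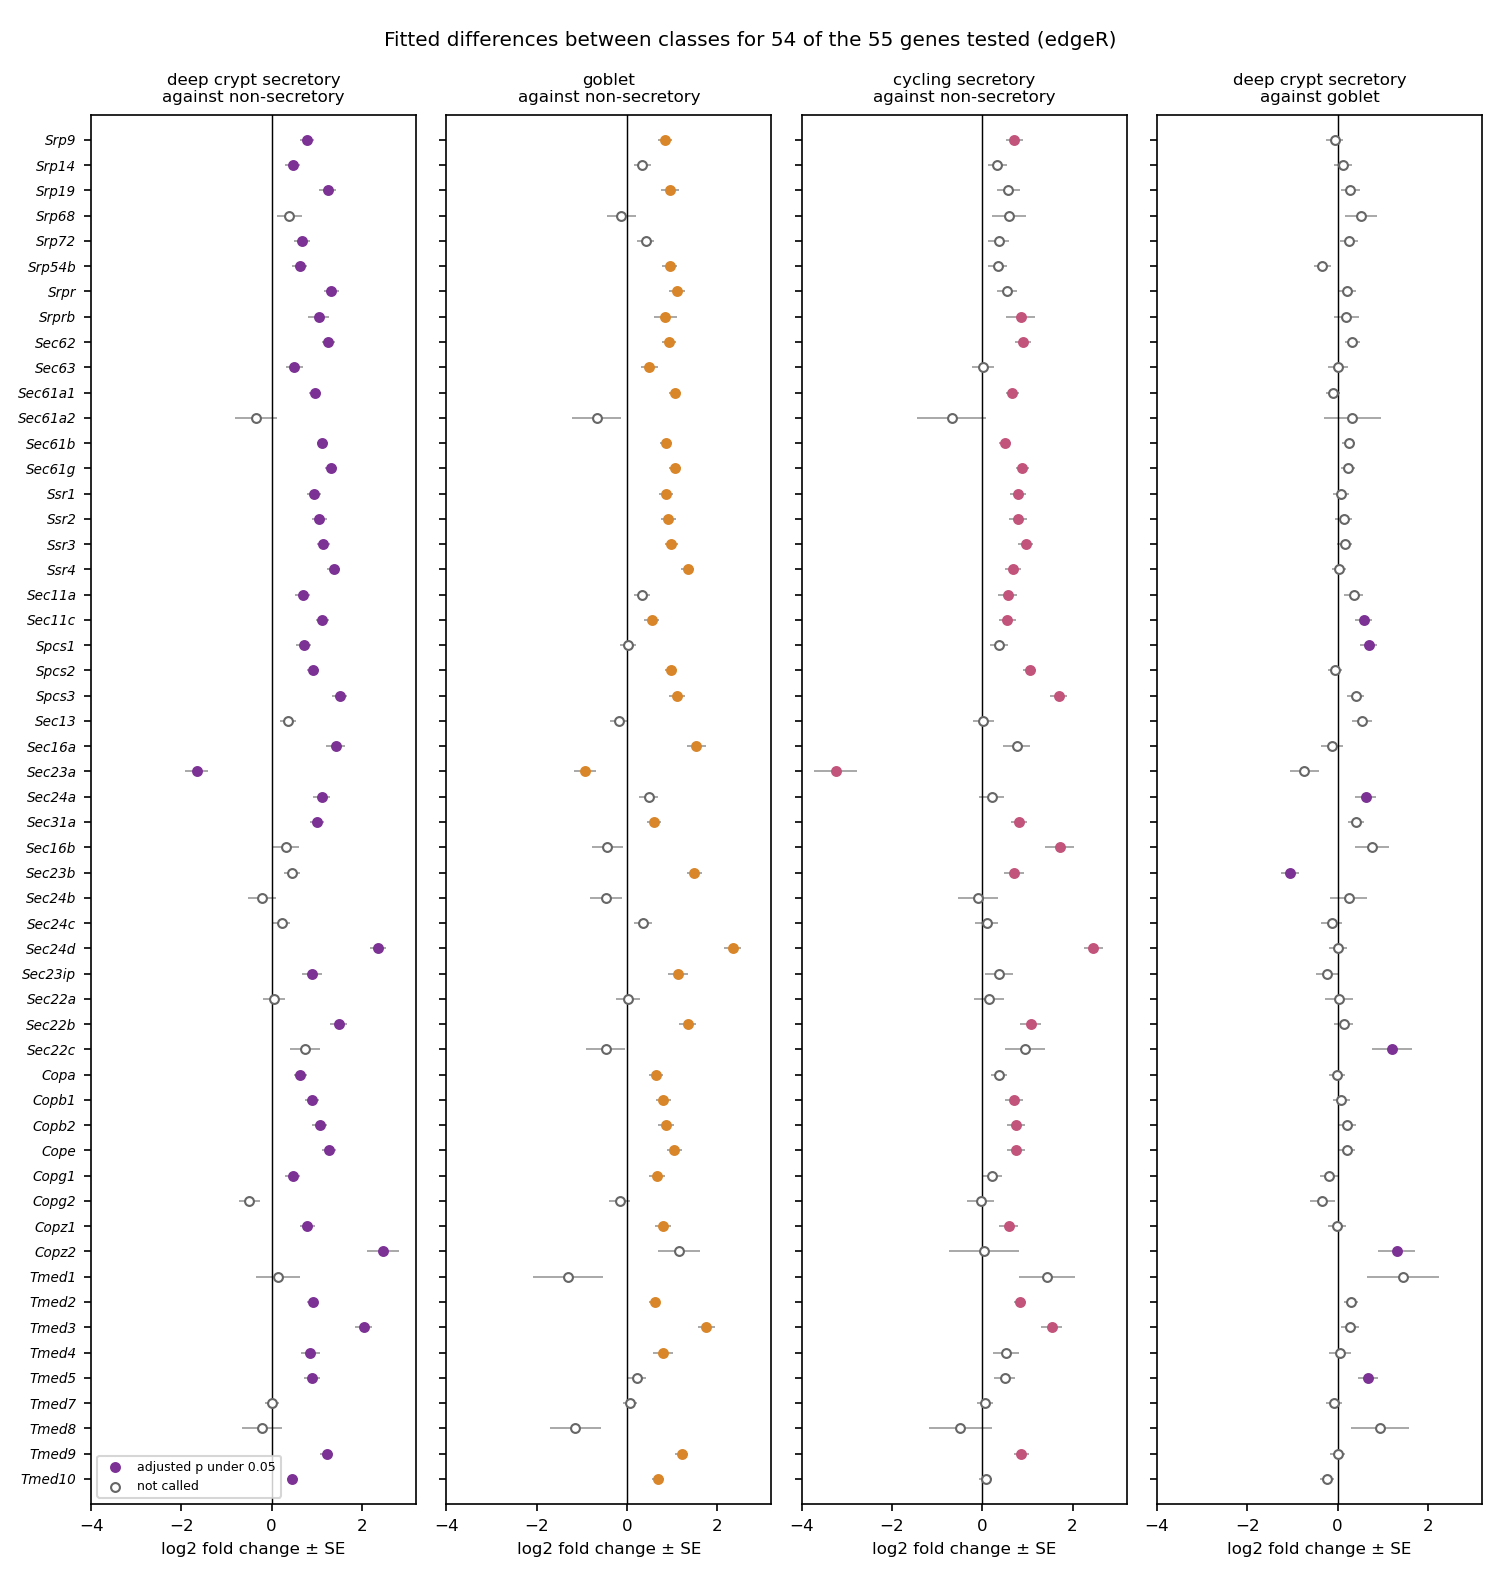
Fitted log2 fold change with its standard error for 54 of the genes tested (Sec31b, with 27 UMIs over all barcodes, is not drawn), in deep crypt secretory-like, goblet-like and cycling secretory-like cells against the non-secretory classes and in deep crypt secretory-like against goblet-like cells; filled points have an adjusted p under 0.05. Sec24d lies between 2.34 and 2.46 in the first 3 panels and Sec23a below 0 in each of them, while most points of the last panel lie near 0.

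Of the 8 genes of the SRP and its receptor, 7 rose in deep crypt secretory-like cells, 5 in goblet-like cells and 2 in cycling secretory-like cells. In the same order, 14.5%, 10.8% and 10.6% of all genes rose. Srpr, the receptor subunit that binds the SRP, stood at 233 and 193 CPM in deep crypt secretory-like cells of libraries 1 and 2, 147 and 131 CPM in cycling secretory-like cells, 150.1 and 143 CPM in goblet-like cells, 98.5 and 70.0 CPM in cycling non-secretory cells and 68.2 and 75.8 CPM in colonocyte-like cells. Every secretory sum lay above every non-secretory sum. The log2 fold change was 1.32 ± 0.17 (adjusted p = 5.11e-14) in deep crypt secretory-like and 1.10 ± 0.18 (adjusted p = 7.41e-09) in goblet-like cells, while 0.55 ± 0.23 in cycling secretory-like cells missed the threshold (adjusted p = 0.0717). Srprb, which anchors the receptor in the membrane, rose in each (1.05, 0.85 and 0.85 in deep crypt secretory-like, goblet-like and cycling secretory-like cells), as did Srp9 (0.78, 0.84 and 0.71), a subunit of the domain that slows translation. Srp19, which helps assemble the particle, rose by 1.24 in deep crypt secretory-like and by 0.95 in goblet-like cells. Srp54b encodes the subunit that reads the signal sequence; its log2 fold change was 0.62 ± 0.17 and 0.95 ± 0.17 in these classes, but it has near-identical copies in the mouse genome, so its count is uncertain. Srp14 and Srp72 rose by 0.46 and 0.67 in deep crypt secretory-like cells, and neither passed the test in the other secretory classes. Srp68 passed in none of the 3 comparisons.

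The 3 subunits of the Sec61 channel moved together. Sec61a1, the pore, stood at 754 and 572 CPM in deep crypt secretory-like cells of libraries 1 and 2, 724 and 484 CPM in cycling secretory-like cells, 575 and 559.5 CPM in goblet-like cells, 506 and 372 CPM in cycling non-secretory cells and 241 and 202 CPM in colonocyte-like cells. Sec61g, the small subunit that clamps it, stood at 946 and 802 CPM in deep crypt secretory-like cells of libraries 1 and 2, 799 and 650.2 CPM in cycling secretory-like cells, 639 and 542 CPM in goblet-like cells, 509.6 and 388 CPM in cycling non-secretory cells and 255 and 205 CPM in colonocyte-like cells. For Sec61g the secretory sums did not overlap the non-secretory sums; for Sec61a1 library 1 of the cycling non-secretory cells (506 CPM) lay above library 2 of the cycling secretory-like cells (484 CPM). The log2 fold changes of Sec61a1 were 0.95 ± 0.13 (adjusted p = 9.89e-12) in deep crypt secretory-like, 1.06 ± 0.13 (adjusted p = 7.15e-14) in goblet-like and 0.67 ± 0.15 (adjusted p = 7.47e-05) in cycling secretory-like cells. Those of Sec61g were 1.31, 1.07 and 0.89, and those of Sec61b 1.12, 0.87 and 0.50, in the same order, and each passed the test. Sec62, which helps import short and fully made precursors, rose by 1.26, 0.93 and 0.90. Its partner Sec63, which recruits the chaperone BiP to the channel, rose less in deep crypt secretory-like (0.50 ± 0.18, adjusted p = 0.0237) and goblet-like cells (0.49 ± 0.19, adjusted p = 0.0472), and stood at 0.01 ± 0.25 in cycling secretory-like cells (adjusted p = 0.99). Sec61a2, the second pore gene, was at 3.26 to 21.8 CPM in the 10 sums and passed in no comparison.

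All 4 genes of the translocon-associated protein complex, which sits beside Sec61 and helps some proteins to enter, rose in each of the secretory classes. The share of all genes that rose was 14.5% in deep crypt secretory-like, 10.8% in goblet-like and 10.6% in cycling secretory-like cells. Ssr4 stood at 491 and 485 CPM in deep crypt secretory-like cells of libraries 1 and 2, 313 and 362 CPM in cycling secretory-like cells, 345 and 426 CPM in goblet-like cells, 201 and 252 CPM in cycling non-secretory cells and 129.9 and 131 CPM in colonocyte-like cells. The lowest secretory sum (313 CPM) was above the highest non-secretory one (252 CPM). Its log2 fold change was 1.37 ± 0.14 (adjusted p = 2.23e-21) in deep crypt secretory-like, 1.34 ± 0.14 (adjusted p = 2.04e-19) in goblet-like and 0.68 ± 0.17 (adjusted p = 0.000552) in cycling secretory-like cells. Ssr1, Ssr2 and Ssr3 ranged from 0.94 to 1.14 in deep crypt secretory-like, from 0.86 to 0.98 in goblet-like and from 0.78 to 0.96 in cycling secretory-like cells.

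**Figure D4:**
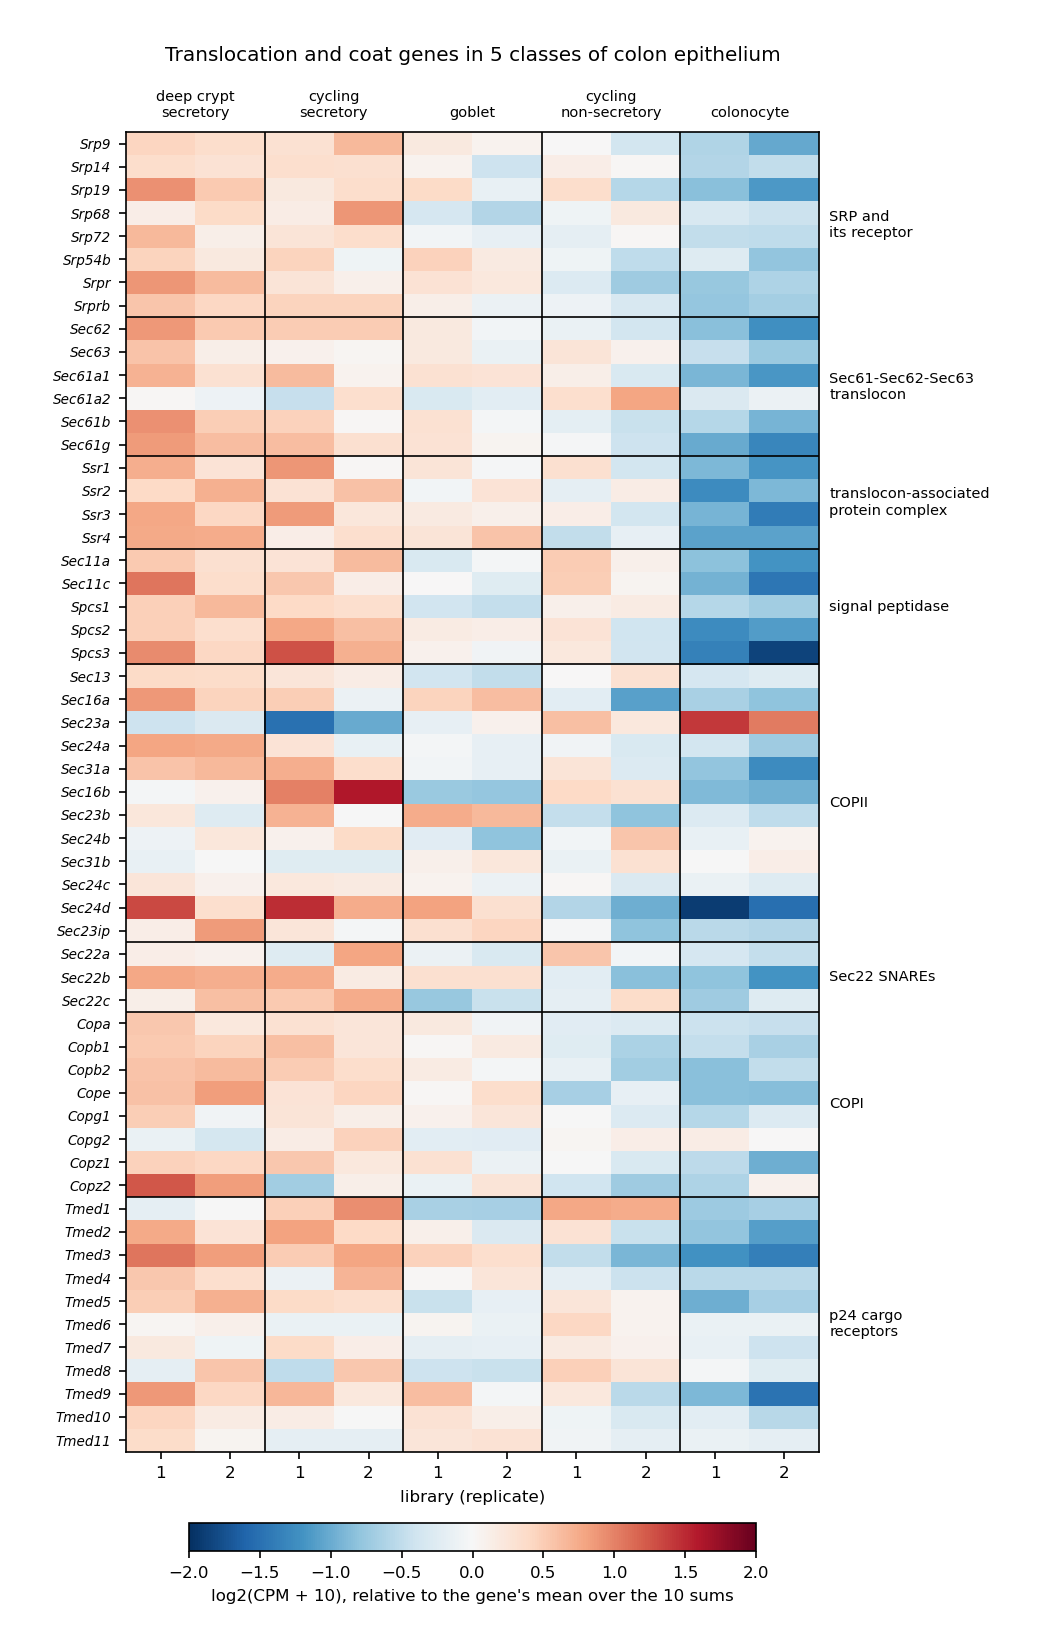
Level of each of the 57 genes in the 10 sums, as log2(CPM + 10) relative to the gene's mean over the sums, with genes grouped by complex. Most rows run from red in the 3 secretory classes to blue in colonocyte-like cells, and Sec23a runs the other way.

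All 5 signal peptidase genes rose in deep crypt secretory-like cells, 4 in cycling secretory-like cells and 3 in goblet-like cells. In the same order, 14.5%, 10.6% and 10.8% of all genes rose. Spcs3, an accessory subunit, stood at 298 and 204 CPM in deep crypt secretory-like cells of libraries 1 and 2, 378 and 253 CPM in cycling secretory-like cells, 161 and 143 CPM in goblet-like cells, 176 and 114 CPM in cycling non-secretory cells and 53 and 34.4 CPM in colonocyte-like cells. Colonocyte-like cells were below every other class, and the cycling non-secretory cells overlapped the goblet-like cells. The log2 fold change was 1.69 ± 0.19 (adjusted p = 8.6e-18) in cycling secretory-like, 1.51 ± 0.16 (adjusted p = 3.53e-19) in deep crypt secretory-like and 1.11 ± 0.17 (adjusted p = 3.8e-09) in goblet-like cells. Sec11c, one of the alternative catalytic subunits, stood at 418 and 251 CPM in deep crypt secretory-like cells of libraries 1 and 2, 287 and 214 CPM in cycling secretory-like cells, 195 and 162 CPM in goblet-like cells, 278 and 202 CPM in cycling non-secretory cells and 95.8 and 64.9 CPM in colonocyte-like cells. In CPM, which is without TMM, cycling non-secretory cells were above goblet-like cells in each library. In the TMM-scaled fit of goblet-like against cycling non-secretory cells, 1 of the 5 signal peptidase genes was higher and 0 lower. Of all genes 13.3% and 11.2% were, and the median log2 fold change of the 5 was -0.01. Against colonocyte-like cells, the cycling non-secretory cells were higher in Spcs3 (1.24 ± 0.21), Sec11c (1.11 ± 0.19), Sec11a (0.99 ± 0.21) and Spcs2 (0.75 ± 0.16), each with an adjusted p of at most 1.39e-05. Spcs2 rose by 0.91, 0.97 and 1.05 in deep crypt secretory-like, goblet-like and cycling secretory-like cells. The other catalytic gene, Sec11a, was at 0.33 ± 0.19 in goblet-like cells (adjusted p = 0.241) and just passed in cycling secretory-like cells (0.56 ± 0.22, adjusted p = 0.0499). Spcs1 rose in deep crypt secretory-like cells (0.71 ± 0.16, adjusted p = 6.47e-05) and stood at 0.02 ± 0.17 in goblet-like cells (adjusted p = 0.971).

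Among the 12 COPII genes the paralogs went separate ways. Sec24 proteins select the cargo of a COPII vesicle, and of the 4 genes Sec24d alone rose in each secretory class. It stood at 285 and 139 CPM in deep crypt secretory-like cells of libraries 1 and 2, 319.5 and 188 CPM in cycling secretory-like cells, 197 and 137 CPM in goblet-like cells, 68.5 and 49.8 CPM in cycling non-secretory cells and 21.8 and 31.5 CPM in colonocyte-like cells. Every secretory sum was above every non-secretory sum, and in each secretory class library 1 was above library 2. The log2 fold change was 2.35 ± 0.18 (adjusted p = 2.37e-37) in deep crypt secretory-like, 2.34 ± 0.19 (adjusted p = 1.61e-34) in goblet-like and 2.46 ± 0.21 (adjusted p = 8.75e-29) in cycling secretory-like cells. Sec24a rose in deep crypt secretory-like cells (1.11 ± 0.19, adjusted p = 8.74e-08) and was at 0.48 ± 0.21 and 0.21 ± 0.28 in goblet-like and cycling secretory-like cells, where it missed the threshold. Sec24b and Sec24c passed in none of the 3 comparisons, with values from -0.47 to 0.35.

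The share of the Sec24 family's UMIs that came from Sec24d compares classes without comparing their totals. It was 52.8% (49.3% to 56.3%) and 35.9% (29.6% to 42.6%) in deep crypt secretory-like cells of libraries 1 and 2 (95% exact binomial intervals, which cover counting error only), 60.1% (52.2% to 67.7%) and 49.4% (38.5% to 60.4%) in cycling secretory-like cells and 52.8% (48.5% to 57%) and 47.9% (39.6% to 56.4%) in goblet-like cells. It was 28.2% (23.3% to 33.5%) and 23.7% (16.8% to 31.8%) in cycling non-secretory and 12.8% (9.93% to 16.2%) and 19.3% (13.6% to 26.1%) in colonocyte-like cells. Sec24c made up the larger part there, 44.2% and 41.6% of the family in colonocyte-like cells against 18.6% and 23.2% in deep crypt secretory-like cells, although its own fitted level passed in none of the 3 comparisons. In library 2 of the deep crypt secretory-like cells the share was lower than in library 1, and its interval lay above those of colonocyte-like cells but met those of cycling non-secretory cells.

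Sec23 forms the inner coat with Sec24, and its 2 genes differed in direction. Sec23a stood at 24.8 and 28.1 CPM in deep crypt secretory-like cells of libraries 1 and 2, 6.52 and 13.1 CPM in cycling secretory-like cells, 31.5 and 39.1 CPM in goblet-like cells, 60.8 and 43.6 CPM in cycling non-secretory cells and 114 and 85.6 CPM in colonocyte-like cells. It was the 1 gene of the 55 that was lower in each secretory class, and no secretory sum reached a non-secretory one. The log2 fold change was -1.66 ± 0.26 (adjusted p = 1.72e-09) in deep crypt secretory-like, -0.93 ± 0.25 (adjusted p = 0.00165) in goblet-like and -3.24 ± 0.48 (adjusted p = 2.71e-10) in cycling secretory-like cells. The last value rests on 2 and 3 UMIs in cycling secretory-like cells, which put the level at 0.0570 (95% exact interval 0.00688 to 0.208) and 0.153 (0.0309 to 0.462) times that of colonocyte-like cells in libraries 1 and 2. Goblet-like cells differed from colonocyte-like cells by -1.62 ± 0.26 (adjusted p = 6.02e-09) but from cycling non-secretory cells by -0.23 ± 0.29 (adjusted p = 0.655), and cycling non-secretory cells differed from colonocyte-like cells by -1.39 ± 0.24 (adjusted p = 4.62e-08). With DESeq2 in place of edgeR the goblet-like difference did not pass (adjusted p = 0.0721).

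Sec23b stood at 141 and 98.3 CPM in deep crypt secretory-like cells of libraries 1 and 2, 199 and 118 CPM in cycling secretory-like cells, 206 and 192 CPM in goblet-like cells, 82.4 and 63.8 CPM in cycling non-secretory cells and 96.9 and 80.7 CPM in colonocyte-like cells. Goblet-like cells were the highest by their mean, and library 2 of the deep crypt secretory-like cells was barely above library 1 of the colonocyte-like cells. Sec23b rose in goblet-like (1.49 ± 0.17, adjusted p = 7.94e-17) and cycling secretory-like cells (0.70 ± 0.22, adjusted p = 0.00987), and 0.45 ± 0.18 in deep crypt secretory-like cells missed the threshold (adjusted p = 0.051). As a share of both Sec23 genes, Sec23b made up 86.7% (82.7% to 90.1%) and 83.1% (75% to 89.3%) in goblet-like, 85.1% (80.0% to 89.3%) and 77.8% (66.4% to 86.7%) in deep crypt secretory-like and 96.8% (89% to 99.6%) and 90% (73.5% to 97.9%) in cycling secretory-like cells. It made up 57.5% (50.1% to 64.7%) and 59.4% (46.9% to 71.1%) in cycling non-secretory and 45.9% (41.8% to 50.02%) and 48.5% (40.8% to 56.3%) in colonocyte-like cells. The intervals of the 3 secretory classes did not meet those of colonocyte-like cells in either library.

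**Figure D5:**
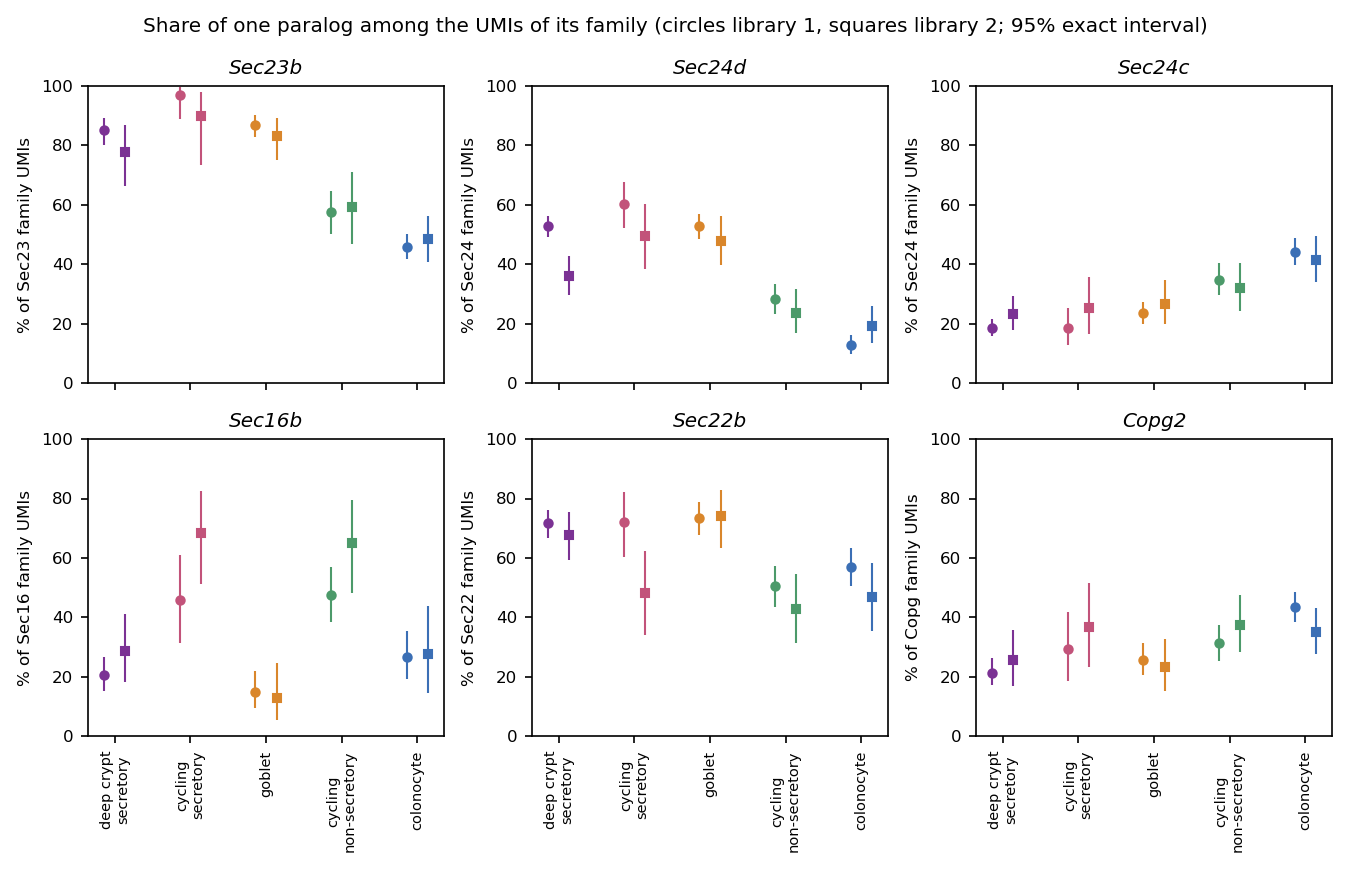
Share (%) of a family's UMIs that came from 1 paralog, by class, for Sec23b, Sec24d, Sec24c, Sec16b, Sec22b and Copg2; circles are library 1, squares library 2 and bars 95% exact binomial intervals. Sec23b and Sec24d take larger shares in the 3 secretory classes, Sec24c a smaller one, and Sec16b is highest in both dividing classes.

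The Sec16 genes organise the ER exit sites where COPII assembles. Sec16a stood at 114 and 82.5 CPM in deep crypt secretory-like cells of libraries 1 and 2, 84.8 and 52.4 CPM in cycling secretory-like cells, 82.2 and 93.9 CPM in goblet-like cells, 48.5 and 21.8 CPM in cycling non-secretory cells and 33 and 28.5 CPM in colonocyte-like cells, and it rose in goblet-like (1.54 ± 0.22, adjusted p = 6.25e-11) and deep crypt secretory-like cells (1.42 ± 0.21, adjusted p = 3.23e-10), with 0.76 ± 0.31 in cycling secretory-like cells missing the threshold (adjusted p = 0.0639). Sec16b was highest in the dividing classes. It stood at 29.5 and 33.4 CPM in deep crypt secretory-like cells of libraries 1 and 2, 71.7 and 113 CPM in cycling secretory-like cells, 14.4 and 13.7 CPM in goblet-like cells, 43.9 and 40.5 CPM in cycling non-secretory cells and 12 and 10.8 CPM in colonocyte-like cells, so both dividing classes were above both non-dividing secretory classes. It rose in cycling secretory-like cells (1.72 ± 0.32, adjusted p = 1e-06) and, among non-secretory cells, was higher in cycling than in colonocyte-like cells (1.39 ± 0.33, adjusted p = 0.000192). Its share of the Sec16 UMIs was 45.8% and 68.4% in cycling secretory-like and 47.5% and 65% in cycling non-secretory cells, against 14.9% and 12.7% in goblet-like, 20.6% and 28.8% in deep crypt secretory-like and 26.6% and 27.5% in colonocyte-like cells. Between deep crypt secretory-like and cycling non-secretory cells its level differed by -0.36 ± 0.32, which did not pass (adjusted p = 0.569).

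Of the outer coat, Sec31a rose by 1.01, 0.60 and 0.81 in deep crypt secretory-like, goblet-like and cycling secretory-like cells, and each passed. Its partner Sec13, which also serves the nuclear pore, was at 0.36, -0.17 and 0.02, and none passed. Sec31b had 27 UMIs over all barcodes and 0 in cycling secretory-like cells, so no fold change is given for it there. Without it, the median of the remaining 54 genes in cycling secretory-like cells was 0.58, unchanged at this precision. Sec23ip, which binds Sec23 at exit sites, rose in deep crypt secretory-like (0.90 ± 0.22, adjusted p = 0.00035) and goblet-like cells (1.14 ± 0.22, adjusted p = 5.58e-06).

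Sec22b is the SNARE protein that fuses vesicles between ER and Golgi. It stood at 173 and 167 CPM in deep crypt secretory-like cells of libraries 1 and 2, 169.6 and 109 CPM in cycling secretory-like cells, 124 and 123 CPM in goblet-like cells, 82.4 and 49.8 CPM in cycling non-secretory cells and 51.2 and 36.4 CPM in colonocyte-like cells. The secretory sums were all above the non-secretory ones, and the log2 fold change was 1.48 ± 0.18 (adjusted p = 4.95e-15) in deep crypt secretory-like, 1.35 ± 0.19 (adjusted p = 2.64e-11) in goblet-like and 1.07 ± 0.24 (adjusted p = 6.96e-05) in cycling secretory-like cells. Its relatives Sec22a and Sec22c passed in none of these comparisons. Sec22b made up 73.6% and 74.1% of the family's UMIs in goblet-like cells and 71.7% and 67.9% in deep crypt secretory-like cells, against 57.1% and 46.8% in colonocyte-like cells. In cycling secretory-like cells the libraries differed, at 72.2% (60.4% to 82.1%) and 48.1% (34% to 62.4%).

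In COPI, the coat of return traffic, 7 of 8 genes rose in deep crypt secretory-like cells, 6 in goblet-like cells and 4 in cycling secretory-like cells. In the same order, 14.5%, 10.8% and 10.6% of all genes rose. Cope, the epsilon subunit, stood at 270.1 and 321 CPM in deep crypt secretory-like cells of libraries 1 and 2, 215 and 240.0 CPM in cycling secretory-like cells, 179.5 and 227 CPM in goblet-like cells, 108 and 156 CPM in cycling non-secretory cells and 94.3 and 92.5 CPM in colonocyte-like cells. The secretory sums lay above the non-secretory ones, and the log2 fold change was 1.27 ± 0.15 (adjusted p = 2.8e-15) in deep crypt secretory-like, 1.05 ± 0.16 (adjusted p = 1.22e-09) in goblet-like and 0.75 ± 0.19 (adjusted p = 0.00092) in cycling secretory-like cells. Copb1 and Copb2, which encode the beta and beta-prime subunits, rose by 0.89 and 1.07 in deep crypt secretory-like, 0.81 and 0.86 in goblet-like and 0.70 and 0.75 in cycling secretory-like cells. Copa, the alpha subunit, rose by 0.63 in deep crypt secretory-like and 0.65 in goblet-like cells. Arcn1, the delta subunit, was higher in these classes by 0.46 ± 0.17 (adjusted p = 0.026) and 0.59 ± 0.17 (adjusted p = 0.00362).

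The gamma and zeta subunits have 2 genes each, and the paralogs differed again. Copg1 rose in deep crypt secretory-like (0.47 ± 0.17, adjusted p = 0.0273) and goblet-like cells (0.66 ± 0.18, adjusted p = 0.00142), whereas Copg2 was at -0.49 ± 0.23 and -0.16 ± 0.24 and did not pass (adjusted p = 0.11 and 0.761). Against colonocyte-like cells alone, Copg2 was lower in deep crypt secretory-like cells (-0.73) and passed. Copg2 made up 43.3% (38.4% to 48.4%) and 35.2% (27.8% to 43.2%) of the family's UMIs in colonocyte-like cells. In deep crypt secretory-like cells it made up 21.4% (17.2% to 26.1%) and 25.6% (16.9% to 35.8%), so the intervals met in library 2. The share was 25.7% and 23.2% in goblet-like, 29.2% and 36.7% in cycling secretory-like and 31.2% and 37.5% in cycling non-secretory cells. Copz1 rose by 0.79, 0.80 and 0.59 in deep crypt secretory-like, goblet-like and cycling secretory-like cells. Copz2 stood at 40.9 and 28.1 CPM in deep crypt secretory-like cells of libraries 1 and 2, 3.26 and 13.1 CPM in cycling secretory-like cells, 9.59 and 15.7 CPM in goblet-like cells, 6.16 and 3.11 CPM in cycling non-secretory cells and 3.99 and 12.8 CPM in colonocyte-like cells. It was high in both libraries of the deep crypt secretory-like cells alone, and the other 8 sums lay between 3.11 and 15.7 CPM. The log2 fold change there was 2.47 ± 0.36 (adjusted p = 9.01e-11), on 165 UMIs over all barcodes, while 1.15 ± 0.47 in goblet-like cells missed the threshold (adjusted p = 0.0672).

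The p24 proteins, products of the Tmed genes, ride both coats and gather cargo. Of the 9 tested, 6 rose in deep crypt secretory-like, 5 in goblet-like and 3 in cycling secretory-like cells. In the same order, 14.5%, 10.8% and 10.6% of all genes rose. Tmed3 stood at 216 and 183 CPM in deep crypt secretory-like cells of libraries 1 and 2, 143 and 175 CPM in cycling secretory-like cells, 137 and 125 CPM in goblet-like cells, 66.2 and 46.7 CPM in cycling non-secretory cells and 36.3 and 31.5 CPM in colonocyte-like cells, with no overlap between secretory and non-secretory sums. Its log2 fold change was 2.03 ± 0.18 (adjusted p = 2.54e-28) in deep crypt secretory-like, 1.76 ± 0.19 (adjusted p = 7.03e-19) in goblet-like and 1.54 ± 0.24 (adjusted p = 1.75e-09) in cycling secretory-like cells, the largest of the p24 genes in each. Tmed9 rose by 1.22, 1.22 and 0.86, and Tmed2 by 0.91, 0.61 and 0.84, in the same order. Tmed10 rose in deep crypt secretory-like (0.46 ± 0.13, adjusted p = 0.00195) and goblet-like cells (0.69 ± 0.13, adjusted p = 8.47e-07) and stood at 0.07 ± 0.14 in cycling secretory-like cells (adjusted p = 0.806). Tmed4 rose by 0.86 and 0.80 in deep crypt secretory-like and goblet-like cells, and Tmed5 by 0.89 in deep crypt secretory-like cells. Tmed7 was at 0.00, 0.07 and 0.06, and none of these passed. Tmed8, with 109 UMIs over all barcodes, also passed in none of these comparisons. It stood lower in goblet-like cells (4.11 and 3.91 CPM) than in cycling non-secretory (16.2 and 12.5 CPM) and colonocyte-like cells (8.35 and 5.90 CPM). In deep crypt secretory-like cells it was at 6.70 and 17.6 CPM and in cycling secretory-like cells at 3.26 and 17.5 CPM.

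Tmed1 was also highest in the dividing classes. It stood at 6.7 and 8.78 CPM in deep crypt secretory-like cells of libraries 1 and 2, 16.3 and 26.2 CPM in cycling secretory-like cells, 2.06 and 1.96 CPM in goblet-like cells, 22.3 and 21.8 CPM in cycling non-secretory cells and 1.45 and 1.97 CPM in colonocyte-like cells, so that all 4 sums of dividing cells were above the 6 others. Against cycling non-secretory cells, goblet-like cells were at -2.92 ± 0.66 (adjusted p = 0.000105). That value rests on 3 and 1 UMIs in goblet-like cells, a level of 0.0921 (95% exact interval 0.0180 to 0.297) and 0.0898 (0.00212 to 0.590) times that of cycling non-secretory cells. Among non-secretory cells the cycling ones were above colonocyte-like cells by 3.22 ± 0.58 (adjusted p = 3.16e-07), a ratio of 15.4 (5.40 to 60.2) and 11.1 (2.54 to 100.4) in the libraries, with 4 and 2 UMIs in colonocyte-like cells.

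The non-secretory classes differ from each other in these genes, so each was also used alone. Against colonocyte-like cells 41 genes were higher and 2 lower in deep crypt secretory-like cells, beside 19% and 17.5% of all genes, and 35 and 1 in goblet-like cells, beside 11.3% and 12.3%. The genes lower there were Sec23a (-2.36) and Copg2 (-0.73) in deep crypt secretory-like and Sec23a in goblet-like cells. Against cycling non-secretory cells 36 were higher and 2 lower in deep crypt secretory-like cells, beside 8.1% and 5.93%, and 30 and 2 in goblet-like cells, beside 13.3% and 11.2%. Those lower were Sec23a and Tmed1 (-1.47) in deep crypt secretory-like and Sec16b (-1.13) and Tmed1 in goblet-like cells. Cycling non-secretory cells were higher than colonocyte-like cells in 17 genes and lower in 2, beside 15.8% and 17.1% of all genes, with a median log2 fold change of 0.24.

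Since both dividing classes differ from the rest in division itself, cycling secretory-like cells were also set against cycling non-secretory cells. Of the 55 genes, 15 were higher and 1 lower, beside 4.16% and 3.21% of all genes, and the median log2 fold change was 0.47 against -0.05 over all genes. Of the 15, 6 were higher by at least 2-fold (2.98% of all genes). The genes with the largest changes were Sec24d (2.05 ± 0.24, adjusted p = 2.86e-15), Tmed3 (1.40 ± 0.26, adjusted p = 7e-06), Sec23b (1.07 ± 0.25, adjusted p = 0.000678), Spcs3 (1.07 ± 0.21, adjusted p = 1.32e-05), Sec16b (1.02 ± 0.34, adjusted p = 0.0355) and Sec22b (1.01 ± 0.26, adjusted p = 0.00356). Copb1, Copb2, Cope, Sec62, Spcs2, Sec61g, Ssr3, Tmed2 and Sec61b rose by 0.51 to 0.85. The gene that was lower was again Sec23a (-2.55 ± 0.54, adjusted p = 9.74e-05), at 0.107 (95% exact interval 0.0128 to 0.4004) and 0.300 (0.0584 to 0.972) times the cycling non-secretory level in libraries 1 and 2. Sec11c stood at 0.00 ± 0.20 and Sec11a at 0.07 ± 0.24, so no difference was detectable in the catalytic signal peptidase genes. The 8 genes of the SRP and its receptor ran from 0.21 to 0.71. In edgeR 0 of them passed at the adjusted p, and 4 had an unadjusted p under 0.05.

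The match for division is approximate. The 11 cycling markers summed to a median of 5949 CPM per barcode in cycling secretory-like and 1734 CPM in cycling non-secretory cells, which include barcodes with few such UMIs. With the latter restricted to the 75 and 19 barcodes at or above 2887 CPM of these markers, 18 genes were higher and 0 lower in edgeR (25 and 1 at an unadjusted p under 0.05), beside 233 and 91 of all 7736 genes. Sec23a then stood at -1.80 (adjusted p = 0.12) and Sec16b at 0.40 (adjusted p = 0.753). The count fell to 6 higher when the 15% of barcodes with the highest doublet scores were left out, where 217 of all 7605 genes were higher, and to 2 higher without the library as a block, where 149 of 8060 were. Sec24d and Tmed3 passed in each of the 9 alternatives in which this comparison could be formed, and Sec16b in 3 of them.

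Calls between deep crypt secretory-like and goblet-like cells were about as frequent among these genes as among all genes. Deep crypt secretory-like cells were higher in 6 of 55 and lower in 1, beside 7.01% and 7.17% of all genes, with a median log2 fold change of 0.16 against 0.05. The gene that was lower, Sec23b, differed by -1.05 ± 0.20 (adjusted p = 3.61e-06), and it passed in all 10 alternatives. The genes that were higher were Copz2 (1.31 ± 0.41, adjusted p = 0.0129), Sec22c (1.21 ± 0.44, adjusted p = 0.0449), Spcs1 (0.69 ± 0.19, adjusted p = 0.00472), Tmed5 (0.67 ± 0.22, adjusted p = 0.0207), Sec24a (0.62 ± 0.23, adjusted p = 0.049) and Sec11c (0.58 ± 0.18, adjusted p = 0.013). Sec22c stood at 22.1 and 35.1 CPM in deep crypt secretory-like cells and 7.54 and 11.7 CPM in goblet-like cells, close to colonocyte-like cells (7.98 and 14.8 CPM). Sec24d (0.01 ± 0.19), Tmed9 (0.00 ± 0.17), Ssr4 (0.03 ± 0.16) and Copa (-0.01 ± 0.17) differed by less than their errors. How many genes were higher depended on the scaling: without TMM 23 were higher and 1 lower, but the median of all genes then moved to 0.39 and that of the 55 to 0.49, and 1316 of all 8060 genes were higher and 365 lower. With DESeq2 0 were higher and 1 lower (4 and 2 at an unadjusted p under 0.05), beside 230 and 401 of all 8060 genes. Without the library as a block 0 were higher and 1 lower (4 and 1), beside 244 and 316 of all 8060. With sums thinned to 229173 UMIs 0 were higher and 1 lower (2 and 1), beside 228 and 320 of all 5208.

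Other genes of the same route were read from 5 lists. Their counts stand beside those of all 8060 genes tested. Of these, 14.5% rose and 11.2% fell in deep crypt secretory-like cells. The shares were 10.8% and 8.1% in goblet-like and 10.6% and 9.32% in cycling secretory-like cells. Of the oligosaccharyltransferase, which attaches sugars to proteins entering the ER, 10 of 12 genes rose in deep crypt secretory-like, 9 in goblet-like and 5 in cycling secretory-like cells, with medians of 0.96, 0.82 and 0.48. Ostc rose by 1.77, 1.41 and 1.34 and Krtcap2 by 1.78, 1.36 and 1.13 in that order. Of 23 other targeting and translocation factors tested, 7 rose and 2 fell in deep crypt secretory-like cells, 1 rose and 2 fell in goblet-like cells and 4 rose in cycling secretory-like cells, with medians of 0.30, 0.07 and 0.30. Tram1, a helper of the Sec61 channel, was the gene that rose in goblet-like cells (1.30 ± 0.14, adjusted p = 7.08e-20). Tmem147, a membrane protein that associates with Sec61, rose in deep crypt secretory-like cells (1.32 ± 0.19, adjusted p = 4.1e-11) and was higher there than in goblet-like cells (0.94 ± 0.23, adjusted p = 0.000659).

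Of 46 other genes of ER-to-Golgi traffic, 22 rose and 2 fell in deep crypt secretory-like, 23 rose and 2 fell in goblet-like and 12 rose and 3 fell in cycling secretory-like cells. Their medians were 0.38, 0.52 and 0.23. Of all genes, 14.5%, 10.8% and 10.6% rose and 11.2%, 8.1% and 9.32% fell in these 3 classes. Kdelr3, a receptor that returns escaped ER residents, stood at 117 and 111 CPM in deep crypt secretory-like cells, 84.8 and 69.8 CPM in cycling secretory-like cells, 56.2 and 50.9 CPM in goblet-like cells and 9.24 and 9.34 CPM in cycling non-secretory cells, with 2 and 0 UMIs in colonocyte-like cells. Against cycling non-secretory cells it was higher by 3.71 ± 0.34 in deep crypt secretory-like and 2.97 ± 0.37 in goblet-like cells. Lman1, a lectin that escorts glycoproteins, rose by 2.60, 1.75 and 1.91, and Mia3, which loads bulky cargo into COPII carriers, by 2.06 and 1.87 in deep crypt secretory-like and goblet-like cells. Of 27 regulators of the unfolded protein response and ER chaperones, 20 rose in deep crypt secretory-like, 20 in goblet-like and 15 in cycling secretory-like cells, with medians of 0.98, 1.29 and 0.76. Creb3l1, a membrane-bound transcription factor, rose by 3.21, 1.77 and 2.89, and Ern2, an ER stress sensor of mucous epithelia, by 3.43, 3.44 and 2.76. Creb3l1 (1.44 ± 0.17, adjusted p = 6.99e-16) was higher in deep crypt secretory-like than in goblet-like cells, and Atf6 (-0.86 ± 0.26, adjusted p = 0.00865) and Dnajb9 (-0.90 ± 0.25, adjusted p = 0.00375) were lower.

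The clathrin adaptor coats work beyond the Golgi and at the cell surface. Of 28 tested, 3 rose and 2 fell in deep crypt secretory-like cells, beside 14.5% and 11.2% of all genes. In goblet-like cells 2 rose and 3 fell, beside 10.8% and 8.1%. In cycling secretory-like cells 0 rose and 2 fell, beside 10.6% and 9.32%. The medians were 0.06, 0.11 and -0.12. Ap1s3, a small subunit of the AP-1 adaptor, was the lowest in deep crypt secretory-like cells (-1.94 ± 0.31, adjusted p = 9.29e-09).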

How the data were processed

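Mouse colonic cells and spiked human K562 cells were encapsulated with inDrop, and their RNA was amplified linearly (CEL-Seq), per the labels' protocols. The files hold whole-number UMI counts per mouse gene and barcode, as deposited by the authors, in 2402 barcodes with at least 1001 UMIs (8602490 and 3951918 UMIs in libraries 1 and 2). GRCm38 and GRCh38 are named in the submitters' processing notes; the aligner, annotation, strand setting and barcode filter were not given in the sources used here. The files hold mouse genes, and the K562 cells were not analysed here. No file used here holds a sequence of these genes, so none is printed.

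Genes were divided by a hash of the symbol into 12685 used for clustering, cell type markers among them, and 12819 that took no part in it, all 57 described genes and the 5 lists among these. Barcodes were scored against 2 simulated doublets per barcode (50 neighbours), and the 5% with the highest scores were left out of each library (87 and 33). Counts were scaled to 10000 UMIs per barcode and log-transformed, and 1500 variable genes, 30 principal components and 15 neighbours gave Leiden clusters at resolution 1. Clusters were named from marker lists; the scoring rule (a mean score of at least 0.75, leading markers among the top 15 genes, 3 or more markers each detected in 10% of cells) was set once the clusters were known and before the described genes were tested.

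Counts were summed into 10 library-by-class sums of 229173 to 2755739 UMIs and fitted together with edgeR 4.0.16 (R 4.3.3; quasi-likelihood, TMM scaling, library as a block, 20 UMIs or more over the sums). The libraries pair the classes by construction, since each holds every class. P-values were adjusted by Benjamini-Hochberg over all 8060 genes tested, with a call at an adjusted p under 0.05; values after ± are standard errors. Levels in CPM are UMIs per 1000000 UMIs of a sum without TMM. Intervals cover counting error only. The scripts were tested on simulated data. The genes and lists were chosen with earlier results of these data known, so their direction is not independent support. Values are given for up to 12 called genes per comparison, those that moved against the majority, the paralog families and up to 4 genes per list. Clustering used scikit-learn 1.9.0 and leidenalg 0.10.2, and DESeq2 1.42.0 was an alternative. Alternatives covered scaling, tool, count filters, doublet filter, clustering resolution, the block, depth, each library and the reference class. Comparisons with a single non-secretory class, the 15% doublet limit and the dividing barcodes were added after the data had been seen.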

Additional observations from a re-analysis of the deposited data

How the results depend on the processing

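Over the alternatives, 27 to 37 genes were higher in goblet-like and 32 to 43 in deep crypt secretory-like cells than in the non-secretory classes, of 51 to 57 tested. As a share of the genes tested, the calls over all genes in goblet-like cells ran from 805 of 12120 to 799 of 4736. The first was without a filter other than 1 UMI (33 of 57 described genes higher), the second with at least 100 UMIs (35 of 51). In deep crypt secretory-like cells they ran from 647 of 8060 (DESeq2, 35 of 55) to 1046 of 4736 (at least 100 UMIs, 42 of 51). The count in cycling secretory-like cells rose from 26 to 39 without TMM, and against cycling non-secretory cells from 15 to 21. Of all 8060 genes, 1280 and 373 were then higher. Without the library as a replicate block, 12 genes were higher in cycling secretory-like cells (26 with it), 2 against cycling non-secretory cells (15 with it) and 0 in deep crypt secretory-like against goblet-like cells (4 at an unadjusted p under 0.05, 6 with the block). Of all 8060 genes, 603, 149 and 244 were then higher (858, 335 and 565 with the block). In deep crypt secretory-like against goblet-like cells the count was also 0 with DESeq2 (4 unadjusted), beside 230 of all 8060 genes. It was 0 with thinned sums (2 unadjusted), beside 228 of 5208, but 23 without TMM, beside 1316 of 8060. With the 15% of barcodes with the highest doublet scores left out, 6 genes were higher in cycling secretory-like than in cycling non-secretory cells, beside 217 of all 7605 genes. Without the doublet filter, the cycling secretory-like class held 120 and 47 barcodes in place of 53 and 24, and its share was 1.10% and 0.989% (1.34% and 1.14% with the filter). With 1 library left out no residual degrees of freedom remain, so only medians of each library's log2 ratios can be given, which are not the fitted fold changes: 0.73 to 0.75 in goblet-like (0.78 over both libraries), 0.78 to 0.97 in deep crypt secretory-like (0.89) and 0.53 to 0.66 in cycling secretory-like cells (0.60), 0.43 to 0.47 against cycling non-secretory cells (0.49) and 0.14 to 0.19 in deep crypt secretory-like against goblet-like cells (0.20). Among the values of single genes, 2399 kept direction and side of the threshold, 126 that passed in neither fit changed sign, 148 no longer passed, 91 newly passed and 2 that passed in 1 fit changed sign: Sec11a in deep crypt secretory-like cells with thinned sums (-0.13, adjusted p = 0.824) and Sec23b in cycling secretory-like cells without the doublet filter (-0.0034, adjusted p = 0.992). Without TMM the median of all genes moved to -0.23 in goblet-like, 0.19 in deep crypt secretory-like and 0.25 in cycling secretory-like cells, and 693 genes were then higher and 1065 lower in goblet-like cells (872 and 653 with TMM). The cause of these changes was not tested. At resolution 0.5 the dividing cells formed 1 mixed cluster, so cycling secretory-like cells were not compared and goblet-like and deep crypt secretory-like cells were set against colonocyte-like cells alone. Without the doublet filter no cycling non-secretory class formed, and the reference was the colonocyte-like and a stem-like class. Genes with few UMIs, such as Tmed1, Sec31b, Sec61a2 and Copz2, are limited by depth. Some calls passed in only part of the alternatives. In deep crypt secretory-like cells Copg1 passed in 5 of 11 and Srp14 in 6 of 11, and in goblet-like cells Sec63 in 5 of 11. In cycling secretory-like cells Srprb passed in 5 of 10 and Sec11a in 3 of 10. Sec22c in deep crypt secretory-like against goblet-like cells passed in 3 of 10.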

Other observations

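At the higher clustering resolution of 1.5 the goblet-like cells fell into 2 clusters that differed in these genes. In the first, led by Clca1, Zg16 and Fcgbp (149 and 29 cells in libraries 1 and 2, median 4094 and 4265 UMIs), the 57 genes took 0.860% and 0.806% of the UMIs. In the second, led by Slpi, Sval1 and Tff3 (121 and 39 cells, median 6788 and 9489 UMIs), they took 1.23% and 1.02%. The second cluster also held more of the deep crypt secretory markers, 9588 and 6186 CPM against 5929 and 5039 CPM, and the clusters differ in depth, whose part was not tested. The deep crypt secretory-like cluster at that resolution took 1.48% and 1.23%.

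The barcodes left out of the tests gave lower shares than deep crypt secretory-like cells. The largest unnamed cluster, with 177 and 168 barcodes of low depth (median 1350 and 2156.5 UMIs), gave 0.904% and 0.825% of its UMIs to the 57 genes, a smaller one of low depth (51 and 45 barcodes) gave 0.488% and 0.382%, and the third (21 and 6 barcodes) 0.930% and 0.964%. Goblet-like cells gave 1.05% and 0.947%. Together the unnamed clusters held 41307 and 29198 CPM of the 7 goblet markers. Of the 7 deep crypt secretory markers they held 7019 and 4645 CPM. Immune-like cells gave 0.790% and 0.610% and tuft-like cells (9 and 2 barcodes) 0.565% and 0.581%.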
